A study of Mus musculus with 32 samples.

Results

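The genes examined here are the core of the mouse microRNA pathway: Drosha and Dgcr8, Dicer1, the Argonautes Ago1, Ago2, Ago3 and Ago4, and the GW182 family members Tnrc6a, Tnrc6b and Tnrc6c. They were taken by name and not by a cut on a measured value, although earlier results of these data were known. They are 10 of the 49671 genes in the count table. All 10 were matched to a single gene identifier, and all 10 passed the filter on low counts at both time points.

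Gene expression was measured by RNA-seq of poly(A)-selected, stranded libraries from primary cortical neurons. The cells were prepared from forebrains of wild-type (WT) C57BL/6 mice at embryonic day 17 to 18 and kept in Neurobasal medium with B27, and no group carried a further allele. Some cultures received no oligoribonucleotide and are called untreated. The others received 10 µg/mL of Mut.oligo, of miR-124-5p or of miR-92a-1-5p, all synthetic, and RNA was taken after 6 h or after 5 d. Mut.oligo is a mutated form of let-7b that served as the control oligoribonucleotide. Each of the 8 groups held 4 libraries that the labels call biological replicates, and the p-values given here measure the spread between these libraries. The study asked how microRNAs that reach neurons from outside alter their transcriptome. The question for these 10 genes is whether the machinery that makes and uses microRNAs changed at the RNA level under such exposure, and how its level differed between the time points.

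MicroRNAs are cut from long primary transcripts in the nucleus by the nuclease Drosha together with its RNA-binding partner Dgcr8. After export, the nuclease Dicer1 trims the hairpin to a duplex, and 1 strand of it is loaded into an Argonaute protein. The Argonaute finds target transcripts mainly through the seed of the microRNA, and proteins of the TNRC6 family, which bind Argonaute, recruit the deadenylases that lead to decay of the target. Among the mouse Argonautes, Ago2 is the one best known for cutting a fully paired target, and Dicer and Dgcr8 are known to be needed for the normal development and survival of cortical neurons.

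The seed is the stretch of a microRNA through which most targets are recognised. The mature sequence of miR-92a-1-5p is shown because it was applied to the cells, and that of let-7b because Mut.oligo was derived from it. In the study's methods Mut.oligo has the same seed as let-7b, and its changes lie outside the seed. The seed of miR-124-5p, which was also applied, was not searched here. Both sequences are from RefSeq on GRCm38.p6, 5′ to 3′, with the seed (bases 2 to 8) in capitals. The mature sequence of miR-92a-1-5p lies at chr14:115044437-115044459 and that of let-7b-5p at chr15:85707325-85707346, both on the forward strand.
miR-92a-1-5p: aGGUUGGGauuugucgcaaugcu
let-7b-5p: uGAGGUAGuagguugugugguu

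The complement of the miR-92a-1-5p seed, CCCAACC, occurred 2 times in the annotated 3′ untranslated region (UTR) of Ago2 and in that of no other member. The complement of the seed that let-7b and Mut.oligo share, CTACCTC, occurred 3 times in the same UTR of Ago2 and 1 time in that of Ago3. These sites are printed from the annotated transcripts, 5′ to 3′ on the transcript, with the match in capitals. The Ago2 UTR is 11064 bases long and the Ago3 UTR 12742 bases, and both genes are on the reverse strand of GRCm38.
Ago2, miR-92a-1-5p, chr15:73104116-73104138: cttgctagctgtgttCCCAACCc
Ago2, miR-92a-1-5p, chr15:73100811-73100833: tgtctctgcgccctcCCCAACCt
Ago2, let-7b-5p, chr15:73101724-73101746: acagatgcataaaagCTACCTCt
Ago2, let-7b-5p, chr15:73100040-73100062: caggtggcctctgtcCTACCTCc
Ago2, let-7b-5p, chr15:73097982-73098004: ttttacaatgtggatCTACCTCa
Ago3, let-7b-5p, chr4:126335040-126335062: ggcacctgccctcacCTACCTCa

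Matches of this kind were frequent in long UTRs. Among the 14915 genes tested at both time points with an annotated 3′ UTR, 10.2% held a match to miR-92a-1-5p and 10.2% a match to let-7b. Among the 49 of these with a 3′ UTR of at least 10000 bases, the shares were 46.9% and 55.1%. The Ago2, Ago3 and Tnrc6b transcripts belong to these 49, while only 0.329% of all tested genes with a 3′ UTR do. Tnrc6b, with a 3′ UTR of 11609 bases, had no match to either seed. At the other end, Drosha has an annotated 3′ UTR of 168 bases, against a median of 1158 bases over all tested genes. A match is a description of the sequence and not a measured site.

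Some of the members are neighbours. Ago3, Ago1 and Ago4 lie in this order within 201.8 kb of the reverse strand of chromosome 4, between bases 126331704 and 126533472 of GRCm38. The 250 bases before the annotated start of each are shown because these adjacent genes differed in direction between the time points, as described below. They are from RefSeq on GRCm38.p6, which holds a pair of starts for Ago1 of which 1 is used, 5′ to 3′ on the reverse strand, with each GGGCGG and its complement in capitals.
Ago3, chr4:126429543-126429792: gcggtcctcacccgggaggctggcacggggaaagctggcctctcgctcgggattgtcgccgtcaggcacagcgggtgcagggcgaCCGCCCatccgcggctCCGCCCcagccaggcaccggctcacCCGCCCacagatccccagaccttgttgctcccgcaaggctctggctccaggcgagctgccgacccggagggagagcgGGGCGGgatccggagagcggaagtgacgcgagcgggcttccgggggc
Ago1, chr4:126468584-126468833: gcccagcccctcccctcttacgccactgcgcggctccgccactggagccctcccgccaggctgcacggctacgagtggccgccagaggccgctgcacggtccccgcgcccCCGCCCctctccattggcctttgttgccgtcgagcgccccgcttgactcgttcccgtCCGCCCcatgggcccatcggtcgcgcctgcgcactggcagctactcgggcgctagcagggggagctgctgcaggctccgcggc
Ago4, chr4:126533459-126533708: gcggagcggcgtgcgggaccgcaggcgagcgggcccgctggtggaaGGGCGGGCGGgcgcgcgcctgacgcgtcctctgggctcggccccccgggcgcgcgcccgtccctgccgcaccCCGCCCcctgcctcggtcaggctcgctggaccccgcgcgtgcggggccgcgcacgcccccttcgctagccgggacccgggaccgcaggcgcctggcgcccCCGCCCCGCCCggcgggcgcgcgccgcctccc

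The 3 regions were rich in G and C, at 73.6% in Ago3, 74.4% in Ago1 and 85.6% in Ago4, against a median of 52.4% over 32841 promoter regions of the same length. GGGCGG, searched on both strands and counting overlapping occurrences, was found 4 times in Ago3, 2 times in Ago1 and 5 times in Ago4, and 32.7% of all regions held it at least 1 time. TATAAA and TGACGTCA were absent from the 3 windows on both strands, and 12.4% and 1.55% of all regions held them.

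The 32 libraries held 24514090 to 73626029 counted reads, and the members had at least 585 reads in every library. The groups of a time point shared experiment batches only in part: at 6 h the untreated libraries were in a batch with 2 libraries of Mut.oligo, 2 of miR-124-5p and 4 of miR-92a-1-5p, and at 5 d with 3, 2 and 2. None of the 13 batches held libraries of both time points. Neuronal markers were abundant, with a summed level of 5102 to 5682 CPM (read counts scaled to the library total) at 6 h and 4499 to 5975 CPM at 5 d over 9 genes. Markers of microglia and endothelial cells each summed to at most 10.5 CPM in any library. The 5 astrocyte markers summed to 209 to 595 CPM at 6 h and 976 to 2135 CPM at 5 d, the 5 of the oligodendrocyte lineage to 100 to 263 CPM and 82.3 to 194 CPM, and the 5 of mural cells and fibroblasts to 23.7 to 181 CPM and 30.9 to 78.9 CPM. The 4 markers of dividing cells summed to 111 to 328 CPM at 6 h. At 5 d they were at 66.0 to 70.6 CPM in untreated libraries, above every treated library at 24.4 to 59.7 CPM. In bulk RNA, fewer cells of a type and less RNA per cell cannot be told apart. At 5 d, miR-124-5p replicate 1 stood apart from its group in Tnrc6b, and the values it bears on most are given with and without it.

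All members were expressed in every group, at very different levels. To compare genes, CPM was divided by the length of all annotated exons in kb. At 6 h, over 16 libraries, Ago1 had the highest level with 33.9 ± 1.44 CPM per kb (SD, n = 16) and Drosha the next with 32.3 ± 1.10. Tnrc6c followed with 15.7 ± 0.914 and Ago2 with 14.3 ± 1.11 CPM per kb. The order went on with Tnrc6a at 9.79 ± 0.615, Dicer1 at 8.65 ± 0.548, Dgcr8 at 6.34 ± 0.275, Tnrc6b at 6.11 ± 0.725 and Ago4 at 4.71 ± 0.439 CPM per kb. Ago3 was the lowest with 1.56 ± 0.211. The ranges of the libraries overlapped in the neighbouring pairs Ago1 and Drosha, Tnrc6c and Ago2, and Tnrc6a and Dicer1. They also overlapped between Dgcr8 and Tnrc6b and between Tnrc6b and Ago4.

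At 5 d, Drosha led the order with 30.3 ± 2.06 CPM per kb (SD, n = 16). Ago1 had 21.1 ± 1.54, Ago2 17.5 ± 2.24, Tnrc6c 11.6 ± 1.07 and Tnrc6a 8.47 ± 0.539 CPM per kb. Tnrc6b with 6.00 ± 1.12, Dgcr8 with 5.67 ± 0.255 and Dicer1 with 5.51 ± 0.550 had overlapping ranges, and so had Ago4 with 2.50 ± 0.217 and Ago3 with 1.90 ± 0.376. The ranges of Ago1 and Ago2 also overlapped at 5 d, and so did those of Ago2 and Tnrc6c. At 6 h, by contrast, the lowest Ago1 library, at 30.9 CPM per kb, was above the highest Ago2 library, at 15.8.

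**Figure D1:**
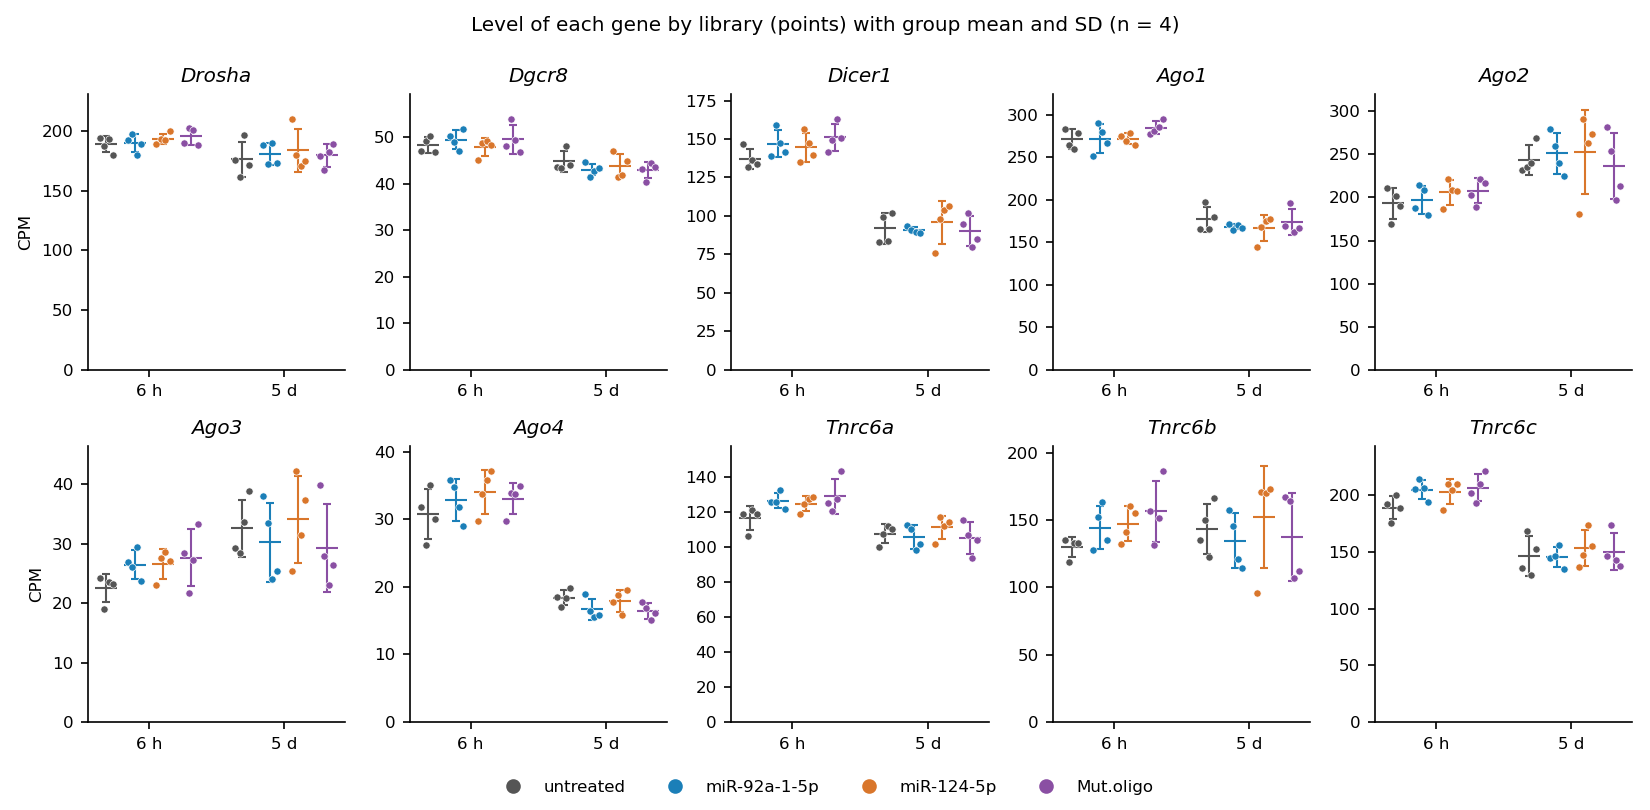
CPM of the 10 genes in each of the 32 libraries (points), with the mean and SD of each group of 4 (bars) at 6 h and 5 d. Dicer1, Ago1, Ago4 and Tnrc6c were lower in every 5 d library than in every 6 h library. Every treated group overlapped the untreated group of its time point except miR-92a-1-5p at 6 h for Tnrc6a. Each vertical axis starts at 0.

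Exposure to an oligoribonucleotide for 6 h was tested against untreated with edgeR over 18755 genes. A gene was called at an adjusted p under 0.05. After miR-92a-1-5p, 0 of the 10 members were called with edgeR, 0 with DESeq2, and 0 had an unadjusted p under 0.05. Of all genes, edgeR called 0%, and 4.75% had an unadjusted p under 0.05. The share of all genes that DESeq2 called is not given here. After miR-124-5p, 0 members were called with either tool and 1 had an unadjusted p under 0.05. With edgeR 0% of all genes were called and 4.54% passed the unadjusted threshold. After Mut.oligo, 0 members were called with either tool and 3 had an unadjusted p under 0.05. With edgeR 0% and 9.49% of all genes did.

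The member with the largest difference in all of these 6 h comparisons was Ago3, the least abundant Argonaute. In untreated neurons its level was 24.3, 19, 23.5 and 23.3 CPM in replicates 1 to 4 at 6 h. After Mut.oligo it was 28.5, 21.7, 27.2 and 33.3 CPM. The library numbered 2 was the lowest in each group, but these libraries came from different batches. The lowest Mut.oligo library was below 3 of the untreated libraries. The log2 fold change was 0.29 ± 0.12 (SE, n = 4 per group), with an adjusted p of 0.462. After miR-124-5p, Ago3 was at 23.0, 27.6, 28.7 and 27.2 CPM, and its log2 fold change was 0.25 with an adjusted p of 1.00. These groups overlapped as well.

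Of the TNRC6 genes, Tnrc6b was at 135, 119, 133 and 133 CPM in untreated neurons and at 157, 132, 151 and 186 CPM after 6 h of Mut.oligo. Only replicate 2 of Mut.oligo lay within the untreated range. The log2 fold change of Tnrc6b was 0.26 ± 0.10 (SE, n = 4 per group), with an adjusted p of 0.434. Tnrc6a was at 119, 106, 121 and 119 CPM in untreated neurons and at 125, 121, 127 and 144 CPM after Mut.oligo. The highest untreated and the lowest Mut.oligo library met at 121 CPM. Its log2 fold change was 0.14 with an adjusted p of 0.461.

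Fitting the experiment batch as a covariate lowered these Mut.oligo values to 0.16 for Ago3, 0.15 for Tnrc6b and 0.07 for Tnrc6a. With the long-transcript measure described below as a covariate, chosen after the data were seen, they were 0.10, 0.09 and 0.05. All had an adjusted p of at least 0.630 in these fits.

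Over all 10 members, the median log2 fold change at 6 h was 0.11 after Mut.oligo, 0.10 after miR-124-5p and 0.09 after miR-92a-1-5p. With the batch as a covariate these medians were 0.07, 0.06 and 0.09. The median over all genes tested, without the covariate, was between -0.003 and 0.01. The 3 comparisons share the untreated libraries, of which replicate 2 was the lowest for Ago2, Ago3, Ago4, Dicer1, Tnrc6a, Tnrc6b and Tnrc6c. The 95% intervals of the members lay between -0.15 and 0.53.

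miR-92a-1-5p at 6 h was the comparison with untreated in which all batches were shared. Within the 4 batches, Ago3 was higher than in the untreated library in 4 of 4, by 0.10 to 0.34 on the log2 scale. Tnrc6a was higher in 4 of 4 by 0.05 to 0.20, and so were Ago4, Dicer1, Dgcr8 and Tnrc6c. Ago1, Ago2, Drosha and Tnrc6b were higher in 3 of 4. How often other genes did so was not counted, so these counts are not a result about the members. The long-transcript measure described below had a mean of -0.07 in untreated and 0.009 in miR-92a-1-5p libraries at 6 h. Its part in the differences within batches was not tested. With the batch as a covariate, 6 members had an unadjusted p under 0.05, where 13.4% of all genes did, and 0 members were called, where 1.06% of all genes were. The smallest adjusted p of a member was 0.142, for Tnrc6a, at a log2 fold change of 0.12. Without the covariate, the libraries of Tnrc6a did not overlap between the groups, at 122 to 133 CPM against 106 to 121 CPM, and 1.94% of all genes were higher without overlap. Tnrc6a was the 1 member for which this held in any comparison with untreated.

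After 5 d of exposure, tested over 19333 genes, 0 of 10 members were called after any of the oligoribonucleotides with edgeR or DESeq2, and 0 had an unadjusted p under 0.05. With edgeR, 0% of all genes were called after Mut.oligo, 0% after miR-124-5p and 0.00517% after miR-92a-1-5p. An unadjusted p under 0.05 was reached by 2.79%, 2.6% and 3.63%. The log2 fold changes of the members were between -0.12 and 0.06 after miR-92a-1-5p, between -0.08 and 0.10 after miR-124-5p, and between -0.13 and 0.06 after Mut.oligo. Their 95% intervals reached from -0.52 to 0.53 and were widest for Ago3 and Tnrc6b. Without miR-124-5p replicate 1, the values after miR-124-5p were between -0.03 and 0.28, with intervals from -0.19 to 0.64, and 0 members were called. Summed markers of dividing cells were higher in every untreated than in every treated library at 5 d, as given above. Those of the oligodendrocyte lineage were at 158 to 194 CPM in untreated libraries, 119 to 130 after Mut.oligo, 107 to 181 after miR-124-5p and 82.3 to 152 after miR-92a-1-5p. The part of these cells in the 5 d comparisons was not tested.

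Ago2, whose 3′ UTR holds the matches to the miR-92a-1-5p seed, was at 188, 214, 208 and 179 CPM after 6 h of miR-92a-1-5p and at 211, 169, 202 and 191 CPM in untreated neurons. At 5 d it was at 280, 260, 240 and 225 CPM after miR-92a-1-5p and at 231, 235, 240 and 270 CPM in untreated neurons. The groups overlapped at both times. The log2 fold change of Ago2 was 0.03 with a 95% interval from -0.15 to 0.20 at 6 h, and 0.06 with an interval from -0.25 to 0.37 at 5 d.

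**Figure D2:**
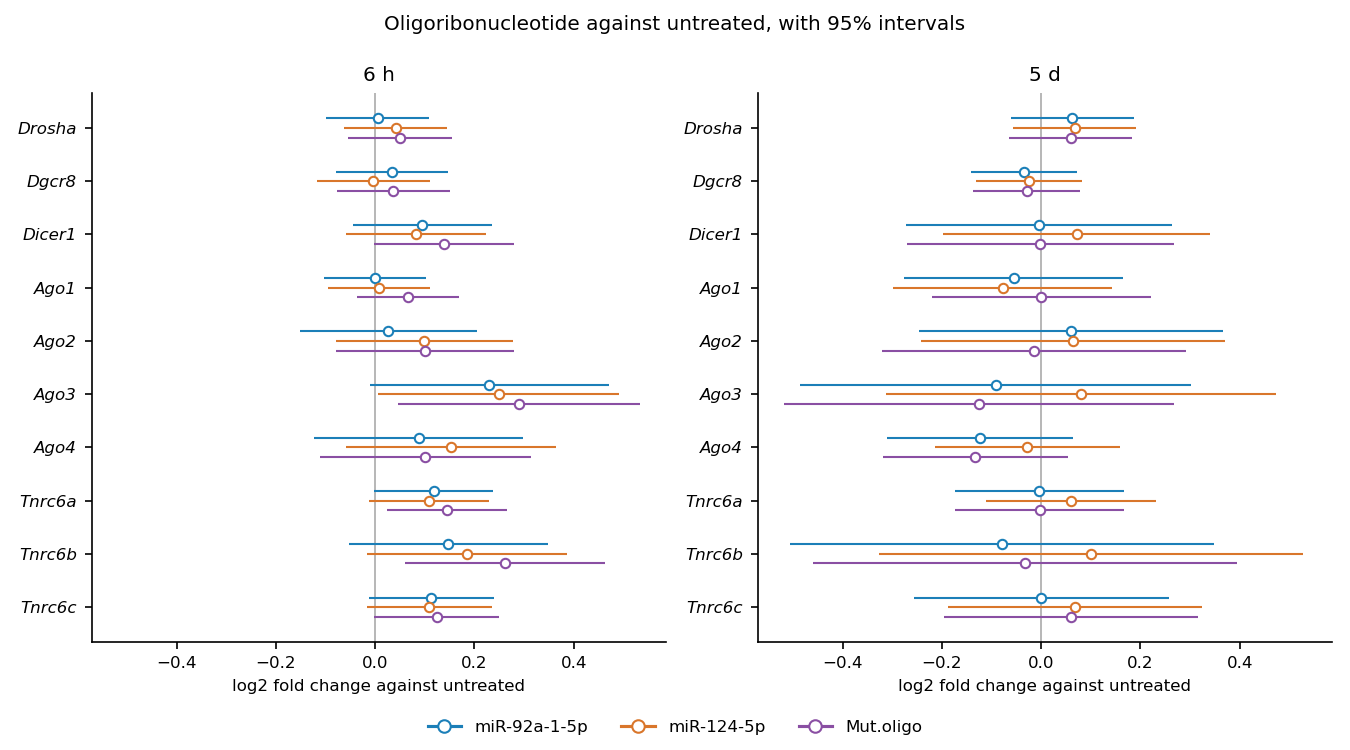
Log2 fold change of each member against untreated after 6 h (left) and 5 d (right) of each oligoribonucleotide, with 95% intervals (n = 4 per group). Open circles mark an adjusted p of 0.05 or more, which holds for all 60 values. Most intervals include 0, and those at 5 d are wider.

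Between oligoribonucleotides, 0 of 10 members were called with edgeR or DESeq2 in any of the 6 comparisons, and 0 had an unadjusted p under 0.05. Of all genes 0% were called with edgeR. The unadjusted threshold was passed at 6 h by 2.12% between miR-92a-1-5p and Mut.oligo, by 3.58% between miR-124-5p and Mut.oligo and by 2.2% between the microRNAs, and at 5 d by 1.98%, 1.68% and 2.29%. The log2 fold changes of the members were between -0.11 and 0.05 at 6 h and between -0.18 and 0.21 at 5 d, or between -0.36 and 0.34 without miR-124-5p replicate 1, where 0 members were called and Tnrc6b, at -0.36 between the microRNAs, had an unadjusted p of 0.0450. The groups of the 2 microRNAs shared all 4 of their batches at 5 d. With the batch as a covariate, 0 members were called between them and 0 had an unadjusted p under 0.05, where 0.0103% and 7.68% of all genes did, and the members' log2 fold changes were between -0.17 and 0.03. Within these batches, 9 members were lower after miR-92a-1-5p in 3 of 4, and Dgcr8 in 2 of 4. How often other genes did so was not counted, so this is not a result about the members. The change of an effect from 6 h to 5 d was tested over 20425 genes. For any oligoribonucleotide, 0 of 10 members were called with edgeR or DESeq2, and 0% of all genes with edgeR. An unadjusted p under 0.05 was reached by 0 members, and by 5.55% of all genes for Mut.oligo, 2.64% for miR-124-5p and 3.92% for miR-92a-1-5p. The farthest from 0 was Ago3 for Mut.oligo at -0.39, with a 95% interval from -0.87 to 0.08 and an adjusted p of 0.857. Under the alternatives tried, 0 members were called in each of these comparisons with untreated, between oligoribonucleotides, and of a change of an effect.

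Members were called between 6 h and 5 d, where none had been between treatments. In untreated neurons, 2 members rose and 4 fell, where 54.7% of all 20425 genes were called, 27.8% as higher and 26.9% as lower. Ago1, Ago4, Dicer1 and Tnrc6c were lower at 5 d, and Ago2 and Ago3 were higher. The time points differ in days in culture and also in experiment batch, and these cannot be told apart. The members' share of calls is near this background. The untreated libraries did not overlap between the times for 6 members, and for 46.8% of all genes.

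Drosha, the nuclease of the first cut, was at 194, 188, 193 and 180 CPM in untreated neurons at 6 h and at 175, 162, 196 and 172 CPM at 5 d. The groups overlapped through replicate 3 of 5 d. The log2 fold change was -0.11 with an adjusted p of 0.0809, and in the treated groups it was between -0.08 and -0.06. Drosha was not called with edgeR in any of the 4 groups, and its interval in untreated neurons ran from -0.23 to -0.001. DESeq2 called it in untreated neurons, with an adjusted p of 0.0441.

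Dgcr8, the partner that anchors Drosha on the hairpin, was at 47.0, 49.2, 50.1 and 46.8 CPM in untreated neurons at 6 h and at 43.6, 43.4, 48.0 and 44.0 CPM at 5 d. The 5 d library of replicate 3 reached into the 6 h range. Its log2 fold change of -0.12 had an adjusted p of 0.0578. It was called in untreated neurons with DESeq2 (adjusted p 0.0301) and with RLE size factors (0.0423). A fit of the 2 groups alone (0.0377) and a minimum of 10 counts in every library (0.0277) also gave a call. Dgcr8 fell by 0.17 after Mut.oligo, by 0.14 after miR-124-5p and by 0.19 after miR-92a-1-5p on the log2 scale, with adjusted p of 0.0102, 0.0314 and 0.00387. The miR-124-5p call was lost without replicate 2, 3 or 4, and the Mut.oligo call without replicate 2. Of the exons of Dgcr8, 4.25% are shared with the overlapping gene Gm49776.

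Dicer1, which cuts the hairpin in the cytoplasm, was at 147, 132, 136 and 134 CPM in untreated neurons at 6 h and at 83.1, 99.1, 83.7 and 102 CPM at 5 d. All 5 d libraries were below all 6 h libraries. The fall was 0.667-fold of the 6 h level, with a log2 fold change of -0.58 ± 0.11 (SE, n = 4 per group) and an adjusted p of 2.79e-05. In the treated groups the log2 fold change was between -0.70 and -0.59, again without overlap.

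Ago1, the most abundant Argonaute transcript at 6 h, was at 283, 264, 260 and 278 CPM in untreated neurons at 6 h and at 165, 197, 165 and 180 CPM at 5 d. No library overlapped. Ago1 was at 0.648 of its 6 h level, with a log2 fold change of -0.63 ± 0.08 (SE, n = 4 per group) and an adjusted p of 2.33e-07. In the treated groups the log2 fold change was between -0.71 and -0.67.

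Ago4, its neighbour on chromosome 4, showed the largest fall of the members. It was at 31.8, 26.2, 35.1 and 30.1 CPM in untreated neurons at 6 h and at 18.5, 17.1, 18.3 and 19.8 CPM at 5 d, without overlap. Its log2 fold change was -0.75 ± 0.10 (SE, n = 4 per group) with an adjusted p of 1.75e-07. After Mut.oligo it was -0.97, after miR-124-5p -0.93 and after miR-92a-1-5p -0.96, so that Ago4 was at 0.512 to 0.524 of its 6 h level in these groups. The difference of these falls from that in untreated neurons was between -0.21 and -0.18, with an adjusted p of at least 0.857.

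Ago2, the slicing Argonaute, moved in the other direction. It was at 211, 169, 202 and 191 CPM in untreated neurons at 6 h and at 231, 235, 240 and 270 CPM at 5 d, without overlap. Ago2 rose by a log2 fold change of 0.32 ± 0.12 (SE, n = 4 per group), with an adjusted p of 0.0289. It also rose in miR-92a-1-5p by 0.36 (adjusted p 0.0152) and in miR-124-5p by 0.29 (adjusted p 0.0463), while the value for Mut.oligo was 0.23 with an adjusted p of 0.117. The untreated call was lost without replicate 2 or 4, with an adjusted p of up to 0.187. The miR-92a-1-5p call was lost without replicate 4, and the miR-124-5p call without replicate 2, 3 or 4, with DESeq2 (adjusted p 0.0583) and with RLE size factors (0.0607).

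Ago3, which lies beside Ago1, was at 24.3, 19, 23.5 and 23.3 CPM in untreated neurons at 6 h and at 29.4, 28.5, 33.7 and 38.9 CPM at 5 d. No library overlapped. It rose by a log2 fold change of 0.52 ± 0.16 (SE, n = 4 per group), with an adjusted p of 0.00840, or 0.0785 without replicate 4. In the treated groups Ago3 was not called, with log2 fold changes of 0.13 after Mut.oligo, 0.36 after miR-124-5p and 0.20 after miR-92a-1-5p. In the group of miR-92a-1-5p at 5 d its libraries were at 38.1, 33.5, 24.0 and 25.3 CPM, of which 2 lay within the 6 h range of that group.

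Among the TNRC6 genes, which link Argonaute to deadenylation, Tnrc6c was at 192, 176, 200 and 189 CPM in untreated neurons at 6 h and at 136, 169, 130 and 153 CPM at 5 d. All 5 d libraries were lower. Tnrc6c fell by 0.37 ± 0.10 on the log2 scale (SE, n = 4 per group), with an adjusted p of 0.00199, or 0.0933 without replicate 3. In the treated groups the values were between -0.48 and -0.41, with adjusted p of at most 0.000836.

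Tnrc6a was at 119, 106, 121 and 119 CPM in untreated neurons at 6 h and at 99.9, 108, 112 and 111 CPM at 5 d. The groups overlapped through replicate 2 of 6 h. The log2 fold change was -0.13 with an adjusted p of 0.134 in untreated neurons. In the treated groups Tnrc6a fell by 0.25 after Mut.oligo, 0.17 after miR-124-5p and 0.25 after miR-92a-1-5p, with adjusted p of 0.00349, 0.0439 and 0.00403. The miR-124-5p call was lost whichever of the 4 replicates was left out, the miR-92a-1-5p call without replicate 3, and the Mut.oligo call without replicate 3 or 4. Tnrc6b was at 135, 119, 133 and 133 CPM at 6 h and at 135, 150, 123 and 166 CPM at 5 d. It was not called in any group, with log2 fold changes between -0.14 and 0.13 and 95% intervals from -0.48 to 0.47.

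**Figure D3:**
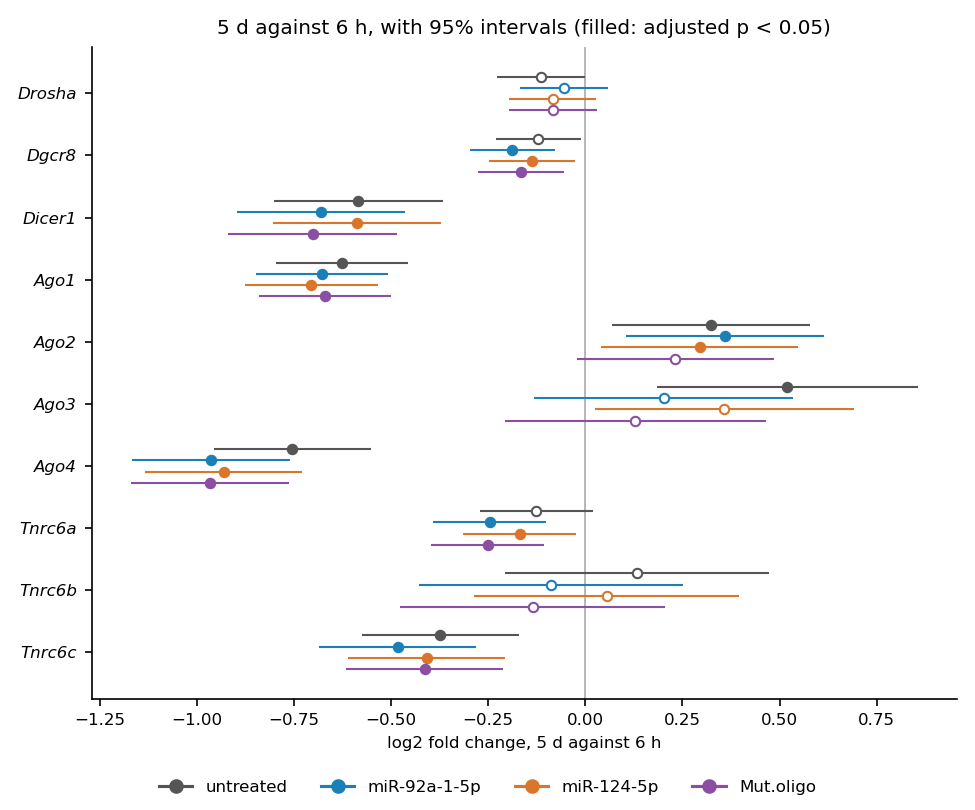
Log2 fold change of each member at 5 d against 6 h in untreated neurons and after each oligoribonucleotide, with 95% intervals (n = 4 per group) and filled circles at an adjusted p under 0.05. Ago1, Ago4, Dicer1, Tnrc6c, Tnrc6a, Dgcr8 and Drosha are below 0 in all 4 groups, and Ago2 and Ago3 are above 0 in all 4. Ago1, Ago4, Dicer1 and Tnrc6c have filled circles in all 4 groups.

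In the treated groups, 7 members were called after miR-92a-1-5p, 1 higher and 6 lower, where 27.1% of all genes rose and 27.5% fell, 54.6% in all. After miR-124-5p 7 members were called, 1 higher and 6 lower, where 27.9% of all genes rose and 26.7% fell, 54.7% in all. After Mut.oligo 0 members rose and 6 fell, where 27.9% of all genes rose and 26.6% fell, 54.5% in all. The calls of Ago1, Ago4 and Dicer1 held in all 4 groups under each of the 13 alternatives. The median log2 fold change of the members was -0.12 in untreated neurons and between -0.22 and -0.15 in the treated groups, against medians between -0.01 and 0.04 over all genes. Without miR-124-5p replicate 1 of 5 d, the miR-124-5p group had 7 members called, 2 of them higher, Ago2 and Ago3. Astrocyte markers were higher and markers of dividing cells lower at 5 d, as given above, and their part in these differences was not tested.

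The composition of the Argonaute transcripts differed between the time points. As a share of the summed CPM per kb of the 4 genes, Ago1 took 60.5% to 65.7% in the untreated libraries at 6 h and 47.5% to 53.7% at 5 d. Ago2 took 24.4% to 27.2% and 37.1% to 41.3%. Every untreated 5 d library was thus beyond the 6 h range in both genes.

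Over all 16 libraries of a time point, the mean share of Ago1 was 62.2% ± 1.72 at 6 h and 49.1% ± 2.83 at 5 d (SD, n = 16). That of Ago2 was 26.3% ± 1.11 and 40.6% ± 2.38. Ago3 made up 2.86% ± 0.308 and 4.40% ± 0.626, and Ago4 8.64% ± 0.718 and 5.84% ± 0.547. The ratio of Ago2 to Ago1 per kb was 0.412 ± 0.0353 in untreated neurons at 6 h and 0.802 ± 0.0784 at 5 d (SD, n = 4). Among the treated 5 d libraries 1 of miR-124-5p reached 1.00. With the longest coding transcript as the length, Ago1 had 64.2% and Ago2 24.6% at 6 h, and 51.4% and 38.5% at 5 d.

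The summed Argonaute level in untreated neurons was 53.0 ± 2.7 CPM per kb at 6 h and 43.8 ± 2.46 at 5 d (SD, n = 4), without overlap of the libraries. Within each time point the means of the 4 groups lay close together, between 53.0 and 56.3 at 6 h and between 42.3 and 43.8 at 5 d. For the TNRC6 genes the sum was 29.4 ± 1.61 and 26.0 ± 2.13 CPM per kb in untreated neurons, and the ranges of the libraries overlapped. Tnrc6c took 49.6% ± 1.04 of that sum at 6 h and 44.5% ± 2.50 at 5 d, Tnrc6b 19.3% ± 1.12 and 22.9% ± 2.54, and Tnrc6a 31.0% ± 0.506 and 32.6% ± 2.04 (SD, n = 16).

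**Figure D4:**
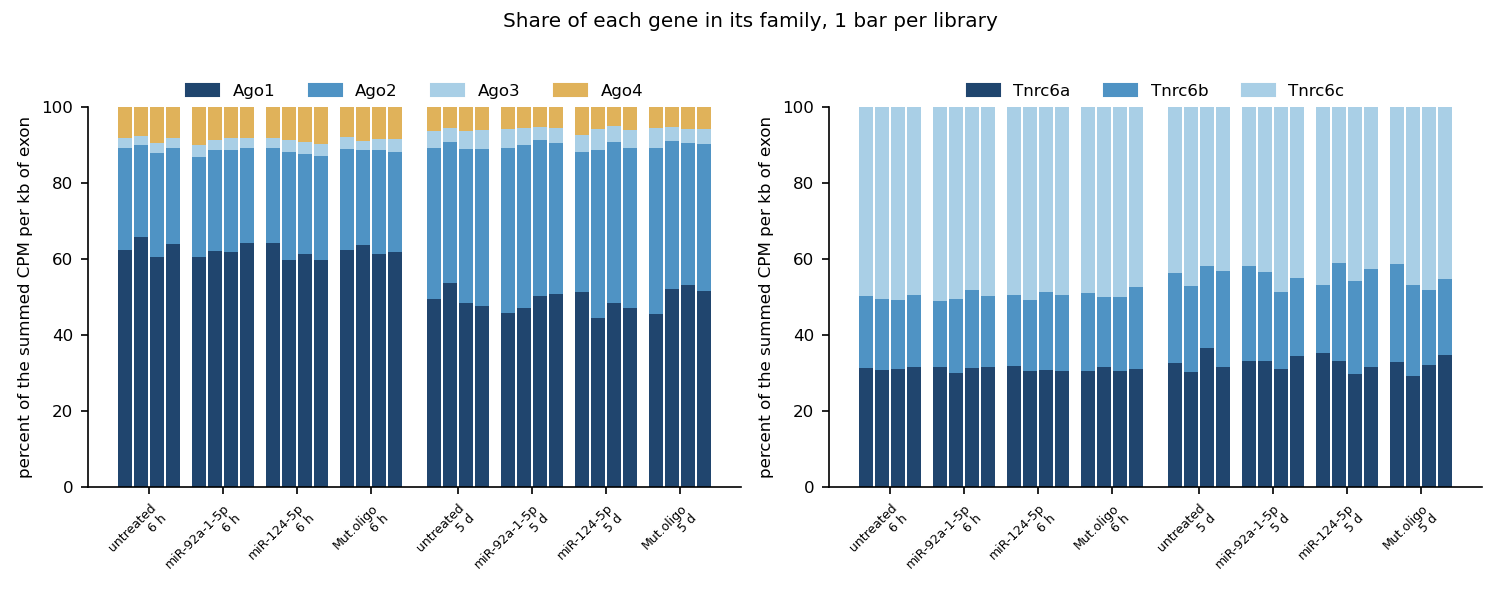
Share of each Argonaute (left) and each TNRC6 gene (right) in the summed CPM per kb of its family, with 1 bar per library. The Ago2 segment is wider at 5 d than at 6 h in every library, and the 4 groups of a time point look alike.

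The members differed in how much they varied among libraries. Over the 16 libraries of a time point, the coefficient of variation was 3.41% for Drosha and 4.34% for Dgcr8 at 6 h, but 13.5% for Ago3 and 11.9% for Tnrc6b. At 5 d it was 19.7% for Ago3, 18.7% for Tnrc6b and 12.8% for Ago2, and 4.49% for Dgcr8, and without miR-124-5p replicate 1 19.4%, 16.7%, 10.8% and 4.16%. The most variable members were thus Ago3 and Tnrc6b, which have the longest 3′ UTRs of the 10. The order did not follow 3′ UTR length throughout. At 6 h Ago4, with 3682 bases, varied by 9.32%, and Ago2, with 11064 bases, by 7.77%.

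This spread moved with the level of long transcripts as a class. For each library, the mean log2 deviation from the time point's average over 885 genes with a coding transcript of at least 8000 bases was taken, and that over 3578 genes of at most 2000 bases was subtracted. The result, a measure of long against short transcripts, was between -0.57 and 0.23. It was lowest in miR-124-5p replicate 1 at 5 d. In that library Tnrc6b was at 95.7 CPM where the others of the group were at 171, 170 and 173 CPM. Ago2 was at 181 CPM there and at 291, 264 and 274 CPM in the others. Drosha was the highest of its group in the same library, with 210 CPM against 180, 170 and 175 CPM.

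Over the 32 libraries, taken as deviations within their time point, Dicer1 followed this measure with Pearson's r = 0.90 (Spearman's rho = 0.92), Ago2 with r = 0.89 (rho = 0.87) and Tnrc6b with r = 0.88 (rho = 0.88). Each had a permutation p of 1e-05 for r and for rho, the smallest that 100000 permutations can give, and an adjusted p of 3.33e-05 for r over the 10 relations. Without the 2 libraries farthest from the median, r was 0.90, 0.82 and 0.86. Ago1, Ago3, Tnrc6a and Tnrc6c had r between 0.63 and 0.73 and rho between 0.66 and 0.72, or r between 0.59 and 0.74 without those 2 libraries, with adjusted p from 7.50e-05 to 0.000557 in the permutation test. Ago4 had r = 0.39 (rho = 0.48) with an adjusted permutation p of 0.0237, and r = 0.50 without the 2.

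Libraries of a batch deviated together, with a median correlation of 0.25 over 31 pairs of different groups, against -0.069 over 161 pairs from different batches, so these permutations treated as exchangeable libraries that are not independent. The relation was therefore recomputed on values centred within the batch and permuted within it, over the 29 libraries in 10 batches that held more than 1 library, a test added after the data were seen. Dicer1, Ago2 and Tnrc6b then had r = 0.93, 0.97 and 0.93 (rho = 0.95, 0.96 and 0.97), with an adjusted permutation p of 2e-05 for r. Ago1, Ago3, Tnrc6a and Tnrc6c had r between 0.76 and 0.89, with an adjusted permutation p of at most 0.00176, and Ago4 had r = 0.56 with 0.00922.

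Drosha and Dgcr8, which have the shortest transcripts of the members, went the other way. Drosha had r = -0.54 (rho = -0.34) and Dgcr8 r = -0.39 (rho = -0.25), with adjusted permutation p of 0.0115 and 0.0318 for r and 0.0848 and 0.173 for rho. Without the 2 farthest libraries r was -0.29 and -0.23. Within batches it was -0.53 and -0.29, with adjusted permutation p of 0.219 and 0.230, so the negative relation did not pass the test there. For Drosha, r was 0.43 at 6 h and -0.74 at 5 d (n = 16 each), or -0.54 at 5 d without miR-124-5p replicate 1. The points share libraries, depth and normalization, and 6 of the members are among the 885 long transcripts. No single batch held the 6 libraries needed for a value of its own. The source of the variation was not tested.

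**Figure D5:**
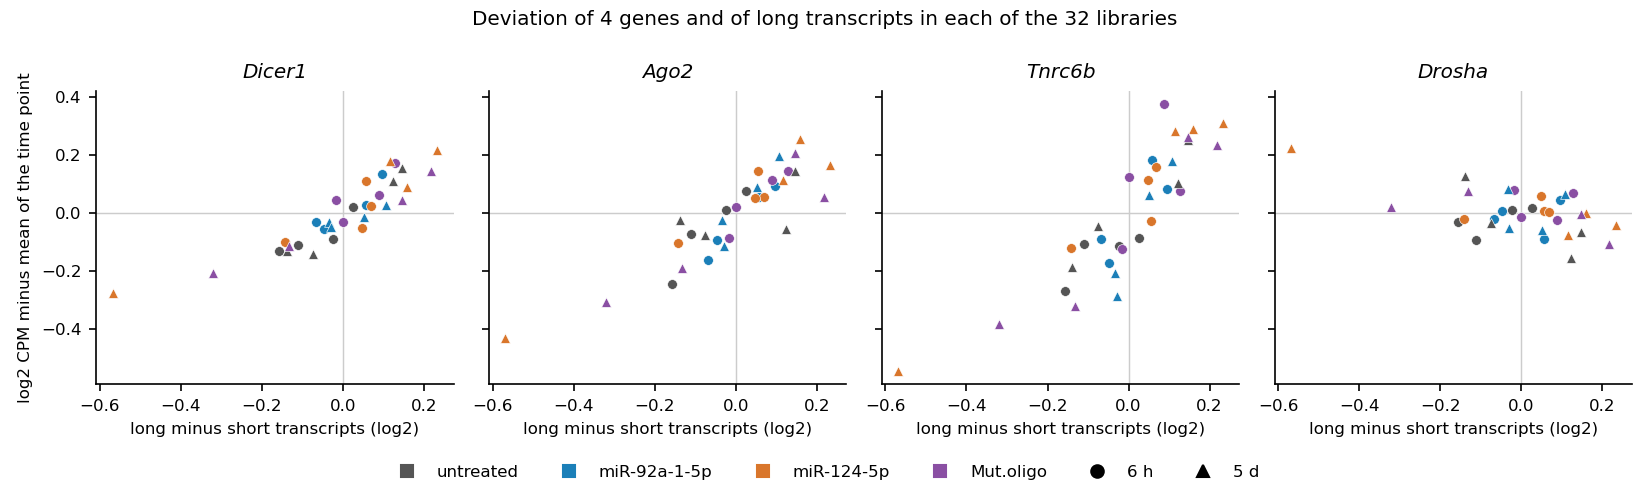
Deviation of Dicer1, Ago2, Tnrc6b and Drosha (log2 CPM minus the mean of the time point) against the difference of long and short transcripts (log2) in the 32 libraries, coloured by group, with circles for 6 h and triangles for 5 d. Dicer1, Ago2 and Tnrc6b rise with the measure, and miR-124-5p replicate 1 at 5 d is the point at -0.57.

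For each member, the gene whose deviations were most like its own over the 32 libraries was taken from 17905 others. For Tnrc6a this was another member, Ago3, with r = 0.91. For Tnrc6b it was Cbl (r = 0.96), for Ago3 Ubn2 (r = 0.95), for Ago2 Usp9x (r = 0.94) and for Dicer1 Myo5a (r = 0.93). For Tnrc6c it was Zfp462 (r = 0.89), for Ago1 Nedd4l (r = 0.86), for Drosha the splicing factor gene Prpf6 (r = 0.85), for Ago4 Tra2a (r = 0.81) and for Dgcr8 Cwf19l1 (r = 0.77). Among the members, Drosha was most like Dgcr8 with r = 0.59 and least like Ago1 with r = -0.60. These are highest values chosen from many, and the libraries share the variation described above.

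The members act with many partners, and 75 further genes of the pathway were looked up, of which 71 could be tested within a time point and 72 over both. In the 12 comparisons within a time point, 0 of 71 were called with or without the batch as a covariate. Of all genes at most 0.00517% were called without it and at most 1.06% with it, so this count is near that share. At 5 d against 6 h in untreated neurons, 9 of 72 rose and 36 fell, where 27.8% and 26.9% of all genes did. The median log2 fold change of these genes was -0.18, against 0.04 over all genes.

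Of the partners of Drosha and regulators of primary transcripts, 1 of 8 rose and 5 fell. Hnrnpa1, an RNA-binding protein that aids the processing of some primary microRNAs, fell by 1.10 ± 0.06 on the log2 scale, and Hnrnpa2b1 by 0.69 ± 0.06 (SE, n = 4 per group). Among export factors and partners of Dicer, 2 of 7 rose and 4 fell. Tarbp2, the RNA-binding partner of Dicer, fell by 0.65 ± 0.07, in the same direction as Dicer1, and Srrt, which links primary transcripts to the cap, by 0.49 ± 0.06. Of the genes of RISC loading and its partners, 3 of 14 rose and 6 fell, with Fkbp4, a co-chaperone, at -0.93 and Fxr2 at -0.50.

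Downstream of TNRC6, 2 of 14 genes of the CCR4-NOT and PAN deadenylases rose and 6 fell, with Cnot6 at -0.59 and Cnot3 at -0.47. Of the decapping and decay genes 0 of 11 rose and 6 fell, with Dcp1a at -0.53 and Edc4 at -0.28, although 8.33% of the exons of Edc4 are shared with Nrn1l. Of the genes of microRNA tailing and decay, 1 of 9 rose and 5 fell, with Zswim8 at -0.43 and Dis3l2 at -0.36.

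Of the microRNA host transcripts, 0 of 7 rose and 4 fell. Mir124-2hg fell by 0.76 ± 0.12 and Mir124a-1hg by 0.82 ± 0.20 on the log2 scale, both hosts of miR-124. Mir17hg, the host of the cluster that holds miR-92a-1, was added after its values were seen. It fell from 1.26 ± 0.0955 CPM to 0.583 ± 0.133 CPM (SD, n = 4), by 1.12 on the log2 scale with an adjusted p of 0.00283, at 25 to 51 reads per untreated library. The PIWI relatives of the Argonautes were near 0, with at most 4 reads of Piwil1 and 9 of Piwil4 in any library and 5 to 36 reads of Piwil2, and 0 of the 2 tested were called.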

How the data were processed

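Reads of 75 bases from stranded libraries were mapped by the authors with STAR 2.7.3a to GRCm38 and counted on the exons of each gene with featureCounts (Subread 2.0.0). The deposited values are raw counts per gene, not normalized, for 49671 genes in 32 libraries, and 0 columns were left over. Gene symbols, exon lengths and 3′ UTRs were taken from GENCODE M21 for the same build, in which 49326 identifiers had a symbol. The study's methods name the earlier release M12 for the annotation. Levels per kb and family shares thus divide M12 counts by M21 lengths. Groups, replicates and batches are those of the deposited labels.

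Low genes were dropped by a minimum of 5 counts in 3 libraries. The fits used R 4.3.3 and its package edgeR 4.0.16 (TMM, quasi-likelihood F-test, no covariate). Each time point was fitted over its 16 libraries and the comparisons of 5 d with 6 h over all 32. Adjusted p are Benjamini-Hochberg values over all genes tested, intervals are 95%, and no minimum fold was set. Levels are CPM of the library total. Deposited counts carry counting error, which is small at these depths. Correlations used log2 CPM with a prior count of 2, permuted within time points, and also within batches. Same-numbered libraries of the 2 microRNAs at 5 d shared a batch, by the labels, in 4 of 4 pairs, with deviations correlated at 0.23 to 0.30. No 2 replicates were alike within sampling noise, with a chi-square per degree of freedom of at least 6.32.

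The alternatives were the batch as a covariate, the replicate block, DESeq2 1.42.0 without and with the batch, RLE size factors, no filter, at least 10 counts in every library, a log2 fold minimum of 0.5, a fit of the 2 compared groups alone, and fits that each left out 1 replicate number. The fit without miR-124-5p replicate 1 of 5 d that with the long-transcript measure as a covariate, and the correlations within batches were added after the data were seen. The members and the lists of further genes were chosen with earlier results of these data known. All members are named, with single fold changes where the unadjusted p was under 0.05, and of each list the 2 genes with the smallest p. Single fold changes of members with a larger p were added after their values were seen. Fits were tested on simulated data.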

Additional observations from a re-analysis of the deposited data

Results flagged for a closer look

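In each of the 80 groups of 4 libraries, 1 per member and condition, the highest and the lowest library were compared with the rest, and 4 groups held a library that stood apart, where chance gives about 1 in 20. Tnrc6b in miR-124-5p replicate 1 at 5 d was at 95.7 CPM, while the others were between 170 and 173 CPM. In untreated neurons at 6 h, replicate 2 had the lowest Tnrc6b with 119 CPM, against 133 to 135 CPM, and the lowest Tnrc6a with 106 CPM, against 119 to 121 CPM. Dgcr8 in untreated replicate 3 at 5 d was the highest with 48.0 CPM, against 43.4 to 44.0 CPM. The measure of long against short transcripts was -0.57 in the first of these libraries and -0.16 in the second, and its part in these values was not tested.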

How the results depend on the processing

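Every alternative run left 0 members called in the comparisons of oligoribonucleotides and of changes of an effect. At 5 d against 6 h, a minimum log2 fold change of 0.5 left 3 members called in each treated group, where Ago1, Ago4 and Dicer1 passed it. Fitting only the 2 groups left 4 after miR-124-5p, and leaving out 1 replicate number gave 4 to 7, and the cause was not tested. Leaving out a replicate gave 4 to 6 calls in untreated neurons, 6 to 7 after miR-92a-1-5p and 5 to 6 after Mut.oligo. With a replicate block, the calls of Ago2 (adjusted p 0.0580) and Tnrc6a (0.0512) after miR-124-5p were lost, which left 5, and no other member changed. Of 48 same-numbered pairs within a time point, 15 shared a batch and 19 had deviations correlated over 0.1, from -0.29 to 0.50, so the numbers did not pair the libraries in general. They did for the 2 microRNAs at 5 d, where the block called 0 members. DESeq2 called 8 members in untreated neurons, where edgeR called 6, with Drosha and Dgcr8 gained. After miR-124-5p it called 6, where edgeR called 7. How many of all genes DESeq2 called is not given here. After miR-124-5p, the calls of Dgcr8 and Tnrc6a were lost without the filter (adjusted p 0.0632 and 0.0579). Of 433 fold changes recomputed for members with an unadjusted p under 0.05, 383 kept their side of the threshold, 42 lost the call, 8 gained it and 0 reversed. Of the 10 relations to long transcripts, 8 kept their side within batches, and those of Drosha and Dgcr8 did not. With the longest coding transcript as the length, the Argonaute shares at 6 h moved to 64.2% for Ago1 and 24.6% for Ago2. All 400 recomputed levels stayed within 1 SD. For the further pathway genes, the minimum fold left 12 of 45 calls at 5 d against 6 h in untreated libraries, 15 of 48 in Mut.oligo, 17 of 53 in miR-124-5p and 16 of 48 in miR-92a-1-5p.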
